A study of Mus musculus with 4 samples.

Results

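The genes described here are the 20 genes for subunits of the cytosolic aminoacyl-tRNA synthetases together with 16 genes of the Atf4 pathway, 36 of the 23970 gene symbols in the table. They were taken by name: 5 transcription regulators (Atf4, Atf5, Cebpg, Ddit3 and Trib3), 6 enzymes of asparagine, serine and folate metabolism (Asns, Phgdh, Psat1, Psph, Shmt2 and Mthfd2), 3 amino acid transporters (Slc7a1, Slc7a5 and Slc3a2) and 2 further Atf4 targets (Chac1 and Vldlr). RNA came from newborn mouse keratinocytes at passage 0, grown in low-calcium medium on growth-arrested J2-3T3 fibroblast feeders that were taken off before extraction. Control and Ovol2-deficient genotypes had 2 libraries each, with no other treatment in either group. The allele that made the cells deficient, any Cre driver, and whether a library came from 1 animal or several are not given in the sources used here. P-values therefore measure the spread between these libraries, which may be technical.

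Aminoacyl-tRNA synthetases charge each tRNA with its amino acid. When amino acids run short, uncharged tRNA activates the kinase Gcn2 (Eif2ak4), which phosphorylates the initiation factor eIF2; general translation falls while that of Atf4 increases. Atf4 pairs with C/EBP proteins on response elements in the genes of synthetases, amino acid transporters and serine synthesis enzymes, and other stresses that phosphorylate eIF2, such as misfolded protein in the endoplasmic reticulum, reach it as well. Atf4 is controlled largely at translation, so its mRNA level is not a measure of its protein.

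The response element has the core TGATGNAA. It was searched on both strands of the RefSeq promoter windows of build GRCm38.p6, which run from 250 bases before to 50 bases after each start. Of the 36 genes, 28 had a window and 9 of these held a match (32.1%), against 4.51% of the 27025 genes with a window. The search covers a feature that the choice of genes did not use, although synthetase and Atf4 target genes are known for such elements. The matches that follow, 1 for each of these 9 genes, are shown because they are places in these windows where the Atf4 core can be read; each run is 30 bases on the gene's strand, 5′ to 3′, with the match in capitals (as TTNCATCA where the core lies on the opposite strand).
Aars, after the start, chr8:111033840-111033869: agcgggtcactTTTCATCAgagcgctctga
Gars, upstream, chr6:55037960-55037989: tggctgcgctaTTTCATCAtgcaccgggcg
Iars, after the start, chr13:49682126-49682155: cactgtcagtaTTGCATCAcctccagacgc
Tars, upstream, chr15:11399655-11399684 (minus strand): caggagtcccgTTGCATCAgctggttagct
Yars, after the start, chr4:129189895-129189924: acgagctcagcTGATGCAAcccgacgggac
Trib3, after the start, chr2:152344028-152344057 (minus strand): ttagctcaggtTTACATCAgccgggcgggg
Asns, upstream, chr6:7693214-7693243 (minus strand): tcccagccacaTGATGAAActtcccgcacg
Chac1, upstream, chr2:119351038-119351067: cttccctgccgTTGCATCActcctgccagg
Vldlr, upstream, chr19:27216809-27216838: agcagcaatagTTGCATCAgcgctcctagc
The runs of Aars, Gars, Iars, Yars, Chac1 and Vldlr lie on the plus strand. Each place is given from the RefSeq start of the window. For Vldlr 1 of 2 windows held the match, and the GENCODE M21 annotation starts that gene earlier, at 27216484. That annotation starts Asns at 7693254, from which its match lies after the start. It starts Trib3 at 152344032, from which its match lies upstream. The 19 genes with a window and no match include Slc7a1, Psat1, Shmt2, Ddit3 and Atf4, which says only that these letters are not in those windows.

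Levels are in FPKM, a fragment count scaled to transcript length and to the mapped fragments of the library, and were compared with limma on log2(FPKM + 1) over the 11350 genes whose mean FPKM reached 1. All 36 genes were above that minimum, the lowest being Chac1 at a mean of 12.1. From the steps between the lowest mean normalized values in the authors' deposited table, and taking the normalized totals as equal, the libraries held about 12400000 and 12700000 counted reads in controls 1 and 2 and about 14800000 and 13500000 in deficient libraries. In that table the 36 genes have mean normalized values from 289.9 (Chac1) to 6377 (Nars). Ovol2, the targeted gene, stood at 2.68 and 2.14 in controls and 1.45 and 0.941 in deficient libraries (log2 fold change -0.64, SE 0.18, adjusted p = 0.129 in limma), so both deficient values were lower but the difference did not pass. The keratinocyte markers were high as a sum in every library: the 12 markers summed to FPKM 7139 to 7544 in controls and 5882 to 6773 in deficient libraries. Krt5 (mean 2619) and Krt14 (2143) were the largest parts of that sum, and Krt15 (24.7) was the smallest.

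No gene of the set was called at an adjusted p under 0.05 in limma, either higher or lower, while 1.35% of all tested genes were (0.837% higher and 0.511% lower). At an unadjusted p under 0.05 there were 8 of 36 (22.2%), 3 higher (Ddit3, Trib3 and Vldlr) and 5 lower (Slc7a1, Slc7a5, Psat1, Shmt2 and Vars), beside 17.4% of all genes (9.49% higher and 7.94% lower). The median log2 fold change of the 36 genes was -0.02, with an interquartile range of -0.08 to 0.06. Over all genes the median was -0.001 and the interquartile range -0.11 to 0.13. All 36 fold changes lay within 1.5-fold in either direction, as did 95.5% of all genes. Both deficient values lay outside the control values for 14 of the 36 (38.9%), 6 higher and 8 lower, beside 48.1% of all genes (24.1% higher and 24.0% lower). The authors' deposited table, which is another test on the same libraries, called 3 of the 36 lower (Slc7a1, Slc7a5 and Psat1) and 0 higher, where 4.43% of its 11582 genes with an adjusted p were called (2.10% lower and 2.33% higher).

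**Figure D1:**
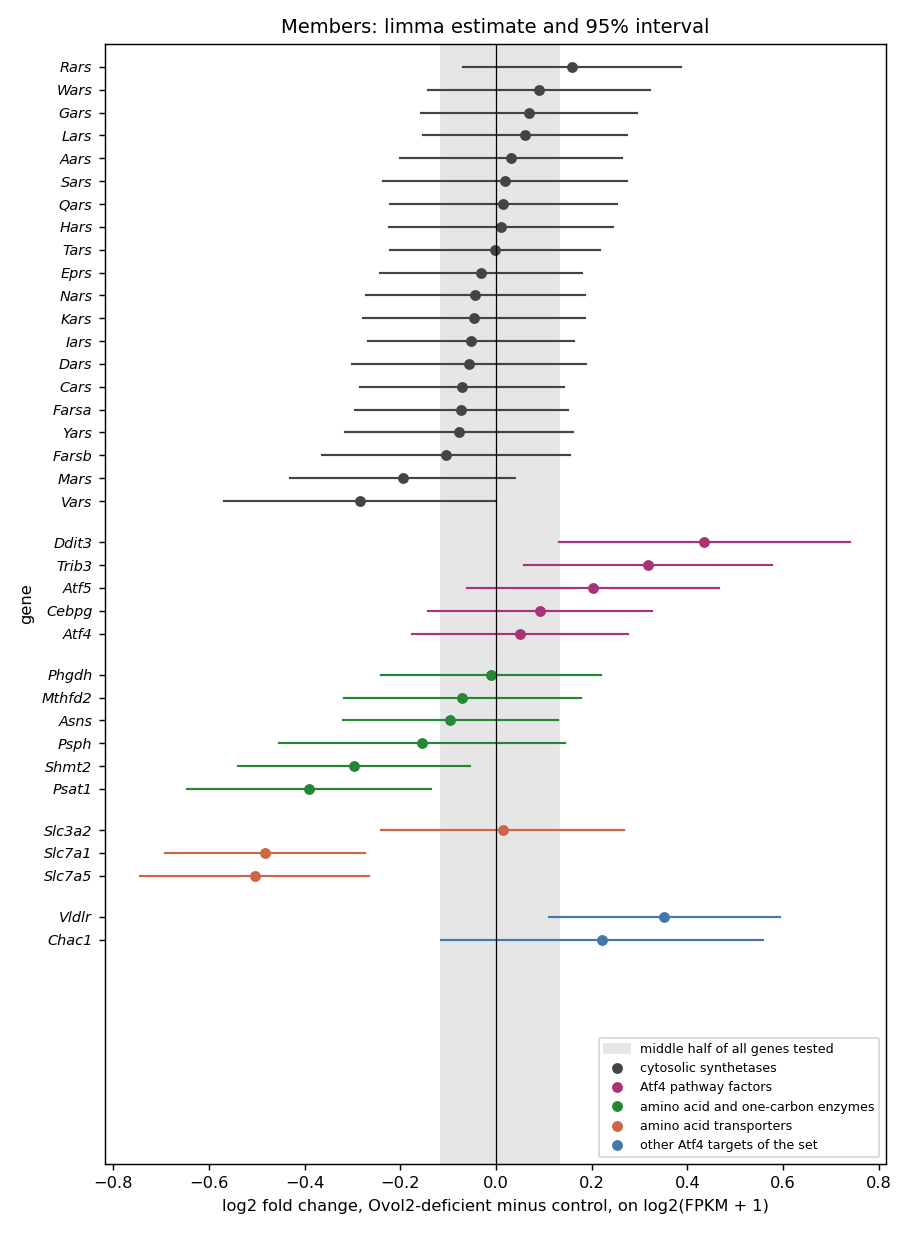
Log2 fold changes (x axis, Ovol2-deficient minus control on log2(FPKM + 1)) of the 36 genes, with limma's 95% intervals as lines, coloured by role; the grey band is the interquartile range of all 11350 genes. The synthetases lie between -0.29 and 0.16, Slc7a5 and Slc7a1 near -0.5, and Ddit3 is the highest at 0.44.

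The 20 synthetase genes differed little between the groups. Their log2 fold changes ran from -0.29 (Vars) to 0.16 (Rars) with a median of -0.04, and 12 were below 0 and 8 above. The 95% interval of every synthetase gene lay inside a 1.5-fold change in either direction, as it did for 78.4% of all genes, with -0.57 as the lowest bound (Vars) and 0.39 as the highest (Rars). Only Vars had an unadjusted p under 0.05.

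Vars, the valine enzyme, stood at FPKM 36.6 and 43.8 in controls and 35.1 and 30.5 in deficient libraries (log2 fold change -0.29, SE 0.12, adjusted p = 0.286 in limma). Both deficient values were lower, but the nearest pair differed by less than the controls did from each other, and the log2 fold change was -0.16 without control 2 and -0.41 without control 1. Mars, the methionine enzyme, which also charges the initiator tRNA, stood at 52.5 and 50.3 against 47.8 and 41.9 (log2 fold change -0.20, SE 0.10, adjusted p = 0.379), again with no overlap. Its exons overlap those of Ddit3 on the opposite strand in GENCODE M21, and since strand is not stated for these libraries, reads of their shared part cannot be told apart. That part is short: on chromosome 10 Ddit3 ends at 127296288 and Mars, on the minus strand, ends at 127296221. In that annotation 11 of the 36 genes have exons that overlap another gene, among them Hars with Hars2, Farsb with Sgpp2 and Shmt2 with Ndufa4l2. Rars, the arginine enzyme, was the highest at 111 and 103 against 125 and 114 (log2 fold change 0.16, SE 0.10, adjusted p = 0.464). Cars, the cysteine enzyme, was the only other synthetase gene with no overlap, at 50.03 and 50.38 against 49.7 and 45.8, where deficient library 1 lay within 1 FPKM of both controls. In the other 16 the groups overlapped.

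The 16 overlapping genes show how small the differences were next to the spread. Gars, the glycine enzyme, stood at FPKM 151.4 and 154.3 in controls and 169.1 and 152.1 in deficient libraries, so library 2 of the deficient group fell between the controls. Wars, for tryptophan, stood at 28.5 and 31.9 against 33.2 and 31.2 and had the second highest log2 fold change (0.09). Lars, for leucine, stood at 45.5 and 46.2 against 49.8 and 46.0 (0.06). In each of them deficient library 1 was above both controls and library 2 within their range.

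At the other end, Farsb stood at 38.3 and 39.6 against 39.6 and 33.0 (-0.10), Yars at 27.1 and 25.8 against 26.7 and 23.4 (-0.08), and Farsa at 41.2 and 41.0 against 41.2 and 37.0 (-0.07). Here deficient library 1 was at the level of the controls and library 2 below both. The same held for Dars (aspartate) at 65.1 and 57.9 against 62.3 and 55.9, Iars (isoleucine) at 73.8 and 75.5 against 75.2 and 68.8, and Kars (lysine) at 80.1 and 74.7 against 79.2 and 70.7. Eprs, which joins the glutamate and proline enzymes in 1 protein, stood at 67.2 and 70.3 against 69.4 and 65.1, and Nars at 159.1 and 162.0 against 164.8 and 147.2, with the deficient values on either side of at least 1 control.

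Aars (alanine) stood at 81.1 and 85.1 against 90.2 and 79.9, so the controls lay between the deficient libraries. Hars (histidine) did the same at 58.5 and 61.1 against 64.3 and 56.4, as did Sars at 103.5 and 95.2 against 108.8 and 93.0. Tars (threonine) stood at 77.8 and 72.4 against 77.6 and 72.4 and Qars (glutamine) at 93.2 and 82.8 against 92.4 and 85.3, where the groups covered nearly the same range. The log2 fold changes of these 5 genes were between -0.002 and 0.03.

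In level, Nars (asparagine, mean FPKM 158.3) and Gars (glycine, 156.8) were highest and did not differ beyond their spread. Rars (113) and Sars (serine, 100.1) came next, and Wars (tryptophan, 31.2) and Yars (tyrosine, 25.8) were lowest, with Yars below Wars in every library. Along that order of 20 genes, 14 of the 19 neighbouring pairs had overlapping values. Farsa and Farsb encode the α and β subunits of the same phenylalanine enzyme, and their FPKM ratio was 1.07 and 1.04 in controls and 1.04 and 1.12 in deficient libraries, with overlap between the groups. The 8 synthetase genes of the multisynthetase complex (Dars, Eprs, Iars, Kars, Lars, Mars, Qars and Rars) had a median log2 fold change of -0.04, and the other 12 had -0.02. The 3 scaffold genes of that complex were as close: Aimp1 at 0.04, Eef1e1 at -0.04 and Aimp2 at -0.12, none called.

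**Figure D2:**
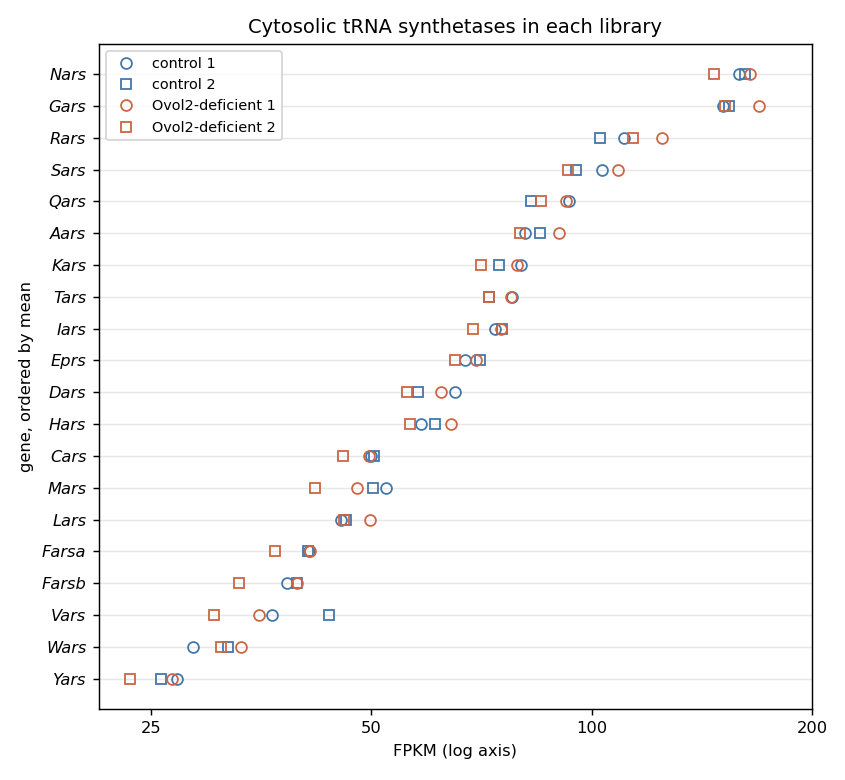
FPKM (x axis, log scale) of the 20 synthetase genes in each library, ordered by mean; blue marks controls, orange Ovol2-deficient, circles library 1 and squares library 2. Ovol2-deficient library 2 lies below Ovol2-deficient library 1 for every gene, and the groups overlap for 16 of the 20.

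The deficient libraries differed from each other in a regular way. Library 2 was below library 1 for 20 of 20 synthetase genes and for 33 of the 36 genes (91.7%), beside 62.1% of all genes. The median log2 difference of library 2 from library 1 was -0.16 over the 36 genes and -0.05 over all genes. Between the controls, library 2 was below library 1 for 18 of 36. In comparison with the control mean, the synthetase median was 0.04 in deficient library 1 and -0.10 in library 2, so neither library alone gives the group's value. The estimated depth was also lower in deficient library 2, and its part in this was not tested.

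Of the 3 transporter genes, Slc7a1 and Slc7a5 stood lower in deficient libraries and Slc3a2, the partner of Slc7a5, did not. Slc7a1, the cationic amino acid transporter that brings in arginine and lysine (ENSMUSG00000041313.14, build mm10 in GENCODE M21, on the minus strand of chromosome 5 from 148327410 to 148399904), stood at FPKM 48.2 and 45.4 in controls and 33.0 and 33.5 in deficient libraries. The control mean was 46.8 ± 1.99 and the deficient mean 33.2 ± 0.350 (SD, n = 2 each), with the deficient libraries close together and well below both controls. The log2 fold change was -0.48 (SE 0.09, 95% interval -0.69 to -0.27), and it just missed the threshold in limma (adjusted p = 0.0551, lower in 2 of 2 deficient libraries). The authors' deposited table gave -0.49 with an adjusted p of 0.000118.

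Slc7a5, the light chain that imports large neutral amino acids such as leucine (ENSMUSG00000040010.10, on the minus strand of chromosome 8 from 121881150 to 121907694), stood at FPKM 56.0 and 58.2 in controls and 42.9 and 37.2 in deficient libraries. The control mean was 57.1 ± 1.54 and the deficient mean 40.0 ± 4.04 (SD, n = 2 each), again without overlap. The log2 fold change was -0.50 (SE 0.10, 95% interval -0.74 to -0.27, adjusted p = 0.0628 in limma), and in the authors' deposited table it was -0.50 with an adjusted p of 0.000602. Slc3a2, the heavy chain that carries Slc7a5 to the cell surface, stood at 146.9 and 137.2 against 154.8 and 132.6, with overlap (log2 fold change 0.01, 95% interval -0.24 to 0.27, adjusted p = 0.968 in limma).

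Slc7a1 and Slc7a5 passed in limma when the minimum mean was raised to FPKM 5 (adjusted p = 0.0398 and 0.0473) and with robust empirical Bayes (0.0196 and 0.0228). Over all alternatives and left-out libraries the adjusted p in limma ran from 0.0196 to 0.230 for Slc7a1 and from 0.0228 to 0.284 for Slc7a5. The FPKM ratio of Slc7a5 to Slc3a2 within a library, which does not depend on the library's scaling, was 0.381 and 0.424 in controls and 0.277 and 0.280 in deficient libraries. That of Slc7a1 to Slc3a2 was 0.329 and 0.331 against 0.213 and 0.252. The ratios did not overlap, and the exact permutation test of 2 libraries against 2 gave p = 0.333 for each (two-sided), the smallest it can give.

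Markers of other cells and of the cell cycle also differed between these libraries, though few passed in limma outside the cell cycle. The authors' deposited table called more of them. It called 12 of 12 G2 and M phase markers and 5 of 12 keratinocyte markers lower. Among those tested in limma, it called 8 of 13 fibroblast or feeder, 2 of 11 suprabasal and 1 of 7 melanocyte markers higher. Over all its genes with an adjusted p, 2.10% were called lower and 2.33% higher. Over all tested genes, both deficient values lay above the controls for 24.1% and below them for 24.0%. All 12 markers of the G2 and M phases stood lower in both deficient libraries, and limma called 8 of them lower (Mki67, Ccna2, Ccnb1, Cdk1, Top2a, Bub1, Plk1 and Kif11; median log2 fold change -0.71; summed FPKM 305 and 340 in controls, 204 and 185 in deficient libraries). Of 16 fibroblast or feeder markers, 13 were tested and all 13 stood higher in both, 2 of them called (Loxl1 and Pcolce; median 0.50; summed FPKM over the 16 of 326 and 307 against 416 and 442), with Lum listed at 0 in a library. Of 9 melanocyte markers, the 7 tested stood higher in both and 0 were called (median 0.36; summed FPKM over the 9 of 73.9 and 83.3 against 109 and 101). Of the 6 immune and 4 endothelial markers, 1 and 2 were tested, their sums were at most 12.8 and 4.67, and Cd207 and Cdh5 were listed at 0 throughout. All 12 keratinocyte markers had log2 fold changes below 0 (median -0.28), 8 of them lower in both deficient libraries and 1 called (Lamb3). Of 12 suprabasal markers, 11 were found, 6 of them higher in both deficient libraries and 1 called (Lce1c; median 1.10; summed FPKM 1707 and 1095 against 2093 and 1498). The controls themselves stood far apart in these genes: control 2 was below control 1 for 11 of 11, by a median log2 difference of -1.32. Deficient library 2 was likewise below deficient library 1 for 11 of 11, by a median of -0.80. Over all genes those medians were -0.01 and -0.05. The part of these markers in the levels of Slc7a1, Slc7a5 or Psat1 was not tested, and in bulk RNA fewer cells of a type and less RNA per cell cannot be told apart.

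**Figure D3:**
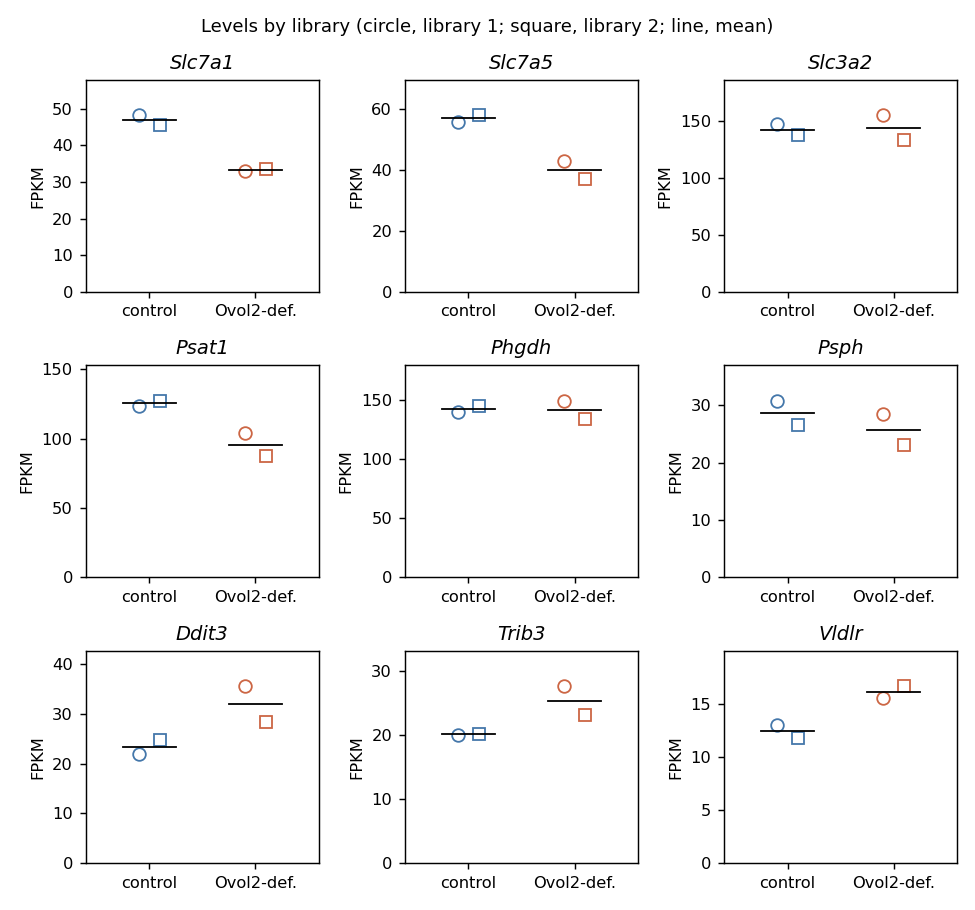
FPKM (y axis, from 0) of 9 genes in each library, with the group means as lines: the transporters, the serine synthesis enzymes and the 3 genes with the largest positive fold changes. Both deficient values of Slc7a1, Slc7a5 and Psat1 lie below the controls, those of Ddit3, Trib3 and Vldlr lie above them, and Slc3a2, Phgdh and Psph overlap.

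All 6 metabolic enzymes had log2 fold changes below 0, from -0.39 to -0.01, and none passed in limma. The serine pathway runs through Phgdh, Psat1 and Psph in that order, and the middle enzyme differed most. Psat1, phosphoserine aminotransferase (ENSMUSG00000024640.9, on the minus strand of chromosome 19 from 15904678 to 15947337), stood at FPKM 123.5 and 127.4 in controls and 104 and 87.4 in deficient libraries. Both deficient values were below both controls, and deficient library 2 was the lower (log2 fold change -0.39, SE 0.11, 95% interval -0.65 to -0.14, adjusted p = 0.128 in limma). In the authors' deposited table the log2 fold change of Psat1 was -0.38 with an adjusted p of 0.0189.

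Phgdh, which takes the pathway's first step, stood at 140 and 145.2 against 149.7 and 133.8, with overlap (log2 fold change -0.01, adjusted p = 0.973 in limma). Psph, the phosphatase that ends it, stood at 30.8 and 26.6 against 28.4 and 23.1, also with overlap (-0.15, adjusted p = 0.605). The FPKM ratio of Psat1 to Phgdh was 0.882 and 0.877 in controls and 0.695 and 0.654 in deficient libraries (exact permutation p = 0.333, two-sided, the smallest possible). The controls were nearly equal in that ratio and the deficient libraries were both lower.

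Shmt2, the mitochondrial enzyme that turns serine into glycine, stood at FPKM 61.2 and 64.2 in controls and 54.7 and 47.2 in deficient libraries, without overlap (log2 fold change -0.30, SE 0.10, adjusted p = 0.202 in limma). Mthfd2, which acts after it on mitochondrial folate, overlapped at 35.5 and 36.8 against 37.3 and 31.8 (-0.07, adjusted p = 0.799). Asns, asparagine synthetase and a classic Atf4 target, stood at 124.2 and 122.4 against 121.8 and 109.2 (-0.10, adjusted p = 0.679), where deficient library 1 was within 1 FPKM of control 2.

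All 5 regulators had log2 fold changes above 0, from 0.05 to 0.44, and none passed in limma or in the authors' deposited table. Atf4 itself stood at FPKM 204.3 and 187.9 in controls and 208.4 and 197.7 in deficient libraries, with overlap (log2 fold change 0.05, SE 0.10, 95% interval -0.18 to 0.28, adjusted p = 0.850 in limma). Ddit3, which encodes the stress factor CHOP, stood at 21.8 and 24.7 against 35.6 and 28.3 (0.44, SE 0.13, 95% interval 0.13 to 0.74, adjusted p = 0.147). Both deficient values were above the controls, but they differed from each other more than deficient library 2 did from control 2. Without deficient library 1 the log2 fold change of Ddit3 was 0.28, and without library 2 it was 0.59.

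Trib3, a pseudokinase induced by Atf4 and CHOP that restrains them in turn, stood at 20.03 and 20.19 against 27.6 and 23.1 (log2 fold change 0.32, SE 0.11, adjusted p = 0.202 in limma), and its log2 fold change was 0.19 without deficient library 1 and 0.44 without library 2. Atf5, a related factor, stood at 85.9 and 80.9 against 105.3 and 87.7 (0.20, adjusted p = 0.419). Its exons also overlap those of other genes on the opposite strand, as GENCODE M21 lists them. Cebpg, a C/EBP partner of Atf4, stood at 16.5 and 14.8 against 16.6 and 16.9 (0.09, adjusted p = 0.702), where the gap between the groups was far smaller than that between the controls.

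Vldlr, a lipoprotein receptor that Atf4 induces, stood at FPKM 13.0 and 11.8 in controls and 15.5 and 16.7 in deficient libraries (log2 fold change 0.35, SE 0.10, 95% interval 0.11 to 0.59, adjusted p = 0.140 in limma). Chac1, which degrades glutathione, stood at 11.6 and 10.5 against 15.05 and 11.3 and overlapped (0.22, SE 0.14, adjusted p = 0.492). Without deficient library 1 its log2 fold change was 0.03, and without library 2 it was 0.41. Deficient library 1 was the highest of the 4 for Ddit3, Trib3, Atf5 and Chac1, and library 2 for Vldlr. The genes with a TGATGNAA match had log2 fold changes from -0.10 to 0.35 with a median of 0.03, and those with a window and no match from -0.48 to 0.44 with a median of -0.05, so the ranges overlapped.

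The rest of the pathway was read from 7 further gene lists. Of 27 further Atf4 targets 23 were tested, 1 was called higher and 0 lower in limma, and the median log2 fold change was -0.007. Nupr1, a small stress-induced nuclear protein, rose from FPKM 45.3 and 47.3 to 74.7 and 67.5 (log2 fold change 0.61, SE 0.09, adjusted p = 0.0419 in limma), and both deficient values were far above the controls. Its call was lost without deficient library 1 (adjusted p = 0.194) or library 2 (0.125), under quantile normalization (0.0548), without the variance trend (0.0695) and with no filter on low values (0.224). In the authors' deposited table it had an adjusted p of 0.00435.

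Stc2, a secreted glycoprotein that stress also induces, pointed the other way at 5.86 and 4.71 against 2.55 and 2.94 (log2 fold change -0.74, SE 0.14, adjusted p = 0.0581 in limma and 0.0473 in the authors' deposited table). Bcat1, the cytosolic branched-chain aminotransferase, was at 0.51 on the same scale (adjusted p = 0.159 in limma) and Cth, which makes cysteine from cystathionine, at -0.41 (adjusted p = 0.106). At an unadjusted p under 0.05 this list had 7 higher and 3 lower of 23 tested, beside 9.49% and 7.94% of all genes.

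Among 16 genes that act on eIF2, 0 were called in limma, with a median log2 fold change of 0.02. There was 1 at an unadjusted p under 0.05, beside 17.4% of all genes. The kinase gene Eif2ak4 (Gcn2) had -0.17 (adjusted p = 0.577) and Gcn1l1, which activates it, -0.06 (adjusted p = 0.869). Impact, an inhibitor of that kinase's activation, stood at FPKM 23.7 and 24.7 in controls and 31.9 and 31.0 in deficient libraries (log2 fold change 0.37, SE 0.09, adjusted p = 0.0965). Ppp1r15a, a phosphatase subunit that restores eIF2, stood at 49.6 and 31.8 against 56.9 and 52.0, with controls far apart (0.44, adjusted p = 0.289).

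Of 20 chaperones and other Xbp1 or Atf6 targets of the endoplasmic reticulum, 0 were called in limma, 15 were below 0 and the median log2 fold change was -0.12. There were 5 lower and 0 higher at an unadjusted p under 0.05, beside 7.94% and 9.49% of all genes. Manf, a secreted protein of that compartment, had -0.42 (adjusted p = 0.106) and the disulfide isomerase Pdia6 -0.41 (adjusted p = 0.108). The authors' deposited table called both lower (adjusted p of 0.0263 and 0.0138). Dnajb9 (0.37, adjusted p = 0.517) and Herpud1 (0.13, adjusted p = 0.716) had the largest positive values. Control 1 was above control 2 for 19 of the 20, so the controls themselves differed in this list.

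Of 17 mitochondrial synthetase genes, 0 were called in limma and the median log2 fold change was -0.09. An unadjusted p under 0.05 was found for 1 of them, beside 17.4% of all genes. Lars2, the leucine enzyme, stood at FPKM 59.9 and 174.4 in controls and 71.6 and 63.7 in deficient libraries, so its log2 fold change of -0.59 (adjusted p = 0.525) came with 1 high control. Mars2 stood at 8.68 and 9.53 against 6.81 and 6.51 (-0.40, adjusted p = 0.121), while Rars2 and Aars2 had the largest positive values at 0.11 and 0.08. Of 14 genes found of amino acid sensing by the kinase complex mTORC1, 0 were called in limma or at an unadjusted p under 0.05, and all 14 had 95% intervals inside a 1.5-fold change, with Sesn1 (0.17) and Rraga (0.16) highest and Lamtor1 (-0.17) and Mlst8 (-0.09) lowest.

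Of 12 genes of folate and serine use outside the set 11 were tested and 0 called in limma. There were 3 lower and 0 higher at an unadjusted p under 0.05, beside 7.94% and 9.49% of all genes. Mthfd1, a cytosolic folate enzyme, stood at FPKM 27.6 and 31.1 in controls and 21.3 and 21.1 in deficient libraries (log2 fold change -0.45, SE 0.10, adjusted p = 0.0733 in limma and 0.00766 in the authors' deposited table). Shmt1, the cytosolic counterpart of Shmt2, stood at 22.0 and 21.4 against 16.6 and 16.6 (-0.37, SE 0.09, adjusted p = 0.0993). Sptlc1, a subunit of the enzyme that joins serine to a fatty acid in sphingolipid synthesis, was at 0.19 (adjusted p = 0.390 in limma).

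**Figure D4:**
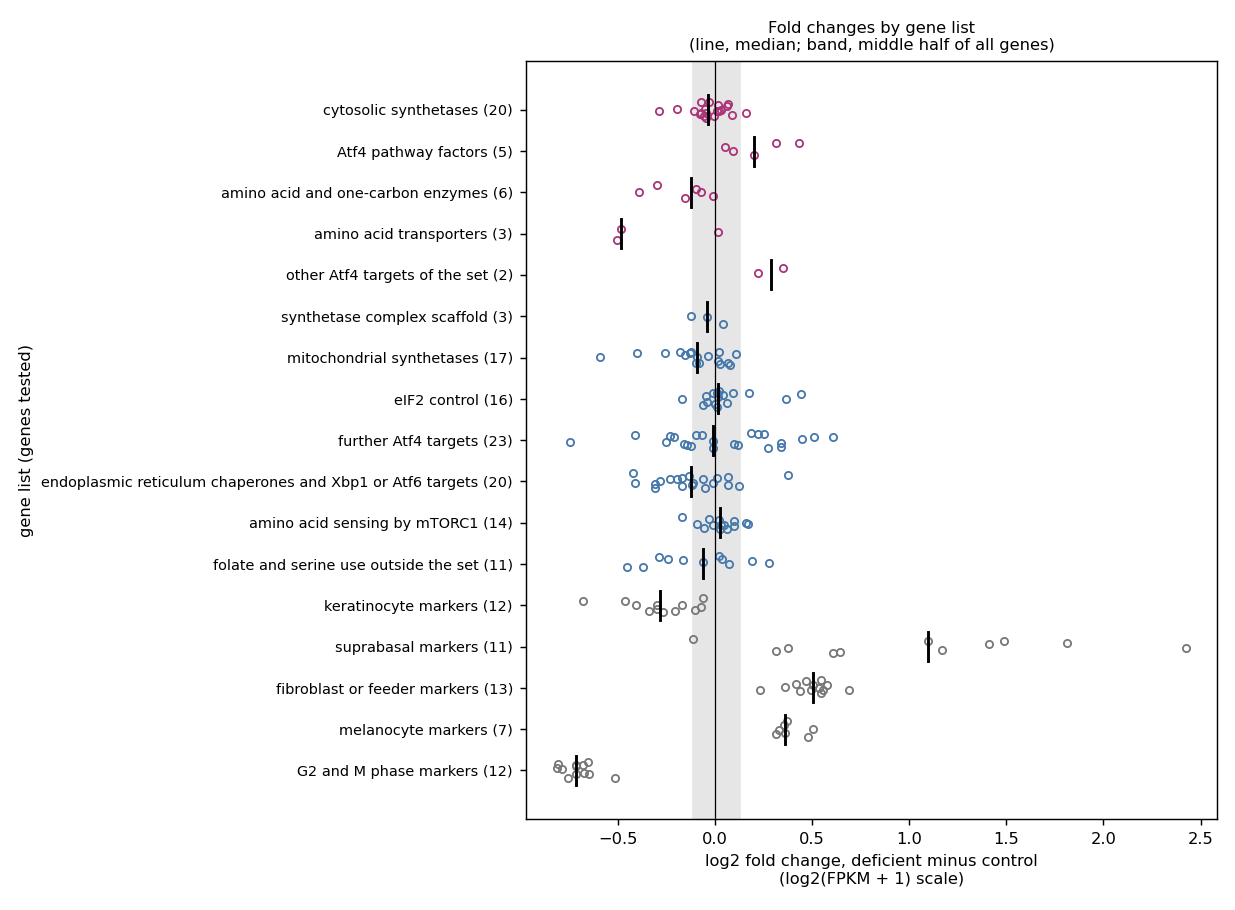
Log2 fold changes (x axis) of each gene tested, by list (y axis, with the number of genes tested), with the list median as a line and the interquartile range of all genes as a band; the 36 genes are in purple, other pathway lists in blue and marker lists in grey. The synthetases sit near 0 with a median of -0.04, while the G2 and M phase markers lie at a median of -0.71 and the fibroblast or feeder markers at 0.50.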

How the data were processed

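RNA from 2 control and 2 Ovol2-deficient keratinocyte cultures was made into cDNA and tagmented, per the labels' protocols. TopHat, HTSeq and mm10 are named in the submitters' processing notes, without versions; which annotation was used is not given in the sources. The authors deposited an FPKM table (24487 rows) and a comparison table which, per the file headers, holds a mean normalized signal, log2 fold changes with their errors, a test score and p-values. The columns named mutant were assigned to the deficient group only, with the table's own numbers.

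Date-like symbols (27) were left out and rows sharing a symbol summed; each of the 36 genes had its own row. The test was limma 3.58.1 in R 4.3.3 on log2(FPKM + 1), group as the only term, a variance trend, Benjamini-Hochberg adjustment over the 11350 genes whose mean FPKM reached 1, and a threshold of 0.05. Fold changes on this scale understate those of low genes. The design allowed for counts or normalized values, and the second was used. The fit was tested on simulated data first. It recovered 1.5% of 1.25-fold, 41.4% of 1.5-fold and 95.6% of 2-fold changes there, so small changes would mostly be missed. The simulation changed 200 genes and drew independent errors with variances from limma's own fit. The rates in these libraries may therefore differ. Alternatives changed the pseudocount, filter, normalization, variance model, repeated rows, block and libraries. The members, lists and tests were chosen with earlier results of these data known. Every member is named; from other pathway lists, called genes and the 2 largest changes in each direction, and from marker lists the called genes. A gene that this rule names and a promoter match are not reported here. Promoter sequences are from RefSeq (GRCm38.p6), where 28 of 36 genes had a window under their symbol or its accepted new name.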

Additional observations from a re-analysis of the deposited data

How the results depend on the processing

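Over 14 alternatives, 470 values of single genes of the set kept their direction and side of the threshold, 28 changed sign and 6 newly passed the threshold. No gene was called higher under any of them. Slc7a1 and Slc7a5 were called lower, 2 genes, with the minimum mean FPKM at 5, with robust empirical Bayes and with the replicate number as a block; these settings called 267, 461 and 518 genes in all against 153. The block added no other call in the set; same-numbered libraries deviated together at r = 0.220 across genes, but the labels do not say that a number marks a shared origin. Other totals were 3 with no filter on low values, 5 under quantile normalization, 82 with size factors and 6 without the variance trend. With 1 library left out they ran from 10 to 466 and the set's median log2 fold change from -0.09 to 0.04. The changes of filter, variance model, repeated rows and block leave a member's log2 fold change unaltered. None of the 36 changed sign with all 4 libraries, where only the pseudocount and normalization could change it. With 1 left out, 18 did, the largest of them -0.10 with all libraries (Farsb), between these lowest and highest values: Aars -0.055 and 0.12, Dars -0.14 and 0.027, Hars -0.082 and 0.10, Kars -0.13 and 0.034, Tars -0.053 and 0.049, Eprs -0.077 and 0.015, Qars -0.070 and 0.10, Sars -0.093 and 0.13, Atf4 -0.009 and 0.11, Phgdh -0.091 and 0.070, Slc3a2 -0.097 and 0.12, Gars -0.0069 and 0.15, Farsa -0.15 and 0.0036, Farsb -0.23 and 0.023, Iars -0.12 and 0.0093, Nars -0.12 and 0.038, Yars -0.17 and 0.013, Mthfd2 -0.18 and 0.041. The cause was not tested. Of those that kept their sign, the values without deficient library 1 or 2 ran from 0.07 to 0.33 for Atf5 and from -0.40 to -0.19 for Shmt2. With a lone library in a group, that library is assumed to vary like the others. With 2 libraries a group, the median SE of a log2 fold change in the set was 0.10, which limits what can be called.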
